A study of Mus musculus with 2 samples.

Results

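Mir221 and Mir222 are a pair of microRNA (miRNA) genes on the mouse X chromosome. They were taken by gene name from the GENCODE M21 annotation, as 2 of the 2202 miRNA genes counted, and both were detected, meaning at least 10 reads in each library, as were 356 genes in all. The material was adrenal gland of adult female mice of the strain 5xFAD/CAST at 8 to 10 months, sequenced as 2 libraries of 1 group, biological replicates 2 and 1. 5xFAD is a transgenic model of Alzheimer's disease whose transgenes are driven by the neuronal Thy1 promoter, and CAST is an inbred strain of wild castaneus origin. The labels do not say which animals carried the transgenes, and both libraries carry the same donor identifier, so their spread may be partly technical. With 1 group the design gives levels and the difference between libraries, not an effect of a condition.

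A miRNA is cut from a hairpin in a longer transcript, and bases 2 to 8 of the mature strand, the seed, choose the mRNAs it represses. In human cells miR-221 and miR-222 are known to repress the cell cycle inhibitor CDKN1B and the receptor KIT, and to be raised in proliferating tumours, thyroid carcinoma among them. They are also known from blood vessels, where they restrain KIT in human endothelial cells and favour growth of smooth muscle in injured rat arteries.

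The mature sequences show what the pair shares. They are given 5′ to 3′ from RefSeq (GRCm38.p6, minus strand of chromosome X) with the seed in capitals.
miR-221-3p: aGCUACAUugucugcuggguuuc
miR-222-3p: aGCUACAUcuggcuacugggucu
miR-221-5p: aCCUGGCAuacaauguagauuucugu
The 3p strands had identical leading 8 bases, seed included, and this seed, GCUACAU, pairs with AUGUAGC in a target RNA. Position by position, 11 of their 23 bases matched, and 19 of 24 columns did when gaps were allowed. Among 1738 mature mouse miRNAs in the same table, 1 other, miR-1928, had that seed. Its gene Mir1928 had 0 reads in both libraries. Such a 0 sets a ceiling, for uniquely mapped reads, of 0.433 CPM in replicate 2 and 0.825 CPM in replicate 1. The seed of miR-221-5p, CCUGGCA, was found in no other mature miRNA of the table.

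The hairpins, with the listed mature strands in capitals, differ more than the seeds do.
Mir221: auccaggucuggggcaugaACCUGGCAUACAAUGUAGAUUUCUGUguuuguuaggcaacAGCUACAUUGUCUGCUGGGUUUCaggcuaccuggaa
Mir222: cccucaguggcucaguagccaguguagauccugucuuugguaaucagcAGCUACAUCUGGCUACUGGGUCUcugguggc
Aligned with each other, they matched in 60 of 96 columns (62.5%), and their longest common stretch was 9 bases. The Mir221 hairpin had 95 bases, 47.4% G and C and a predicted folding energy of -42.8 kcal/mol, and the Mir222 hairpin had 79 bases, 54.4% and -40.7 kcal/mol. Neither shared a 20-base stretch with another miRNA hairpin of the table. No 18-base stretch of the 3 mature strands occurred on either strand of any other GENCODE M21 transcript. A read of more than 9 bases without a mismatch could therefore match only one of the hairpins, while the rest of the genome was not searched.

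Mir221 (ENSMUSG00000065422.1) lies at chrX:19146294-19146388 and Mir222 (ENSMUSG00000065471.1) at chrX:19146893-19146971, both in mm10 on the minus strand, so that Mir222 comes first in the direction of transcription. The gap between them is 504 bases. GENCODE M21 places neither inside another gene, and in neither library did the other-strand column hold a read on them. The nearest annotated gene, the noncoding Gm14636, lies 10009 bases away, upstream on the same strand.

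**Figure D1:**
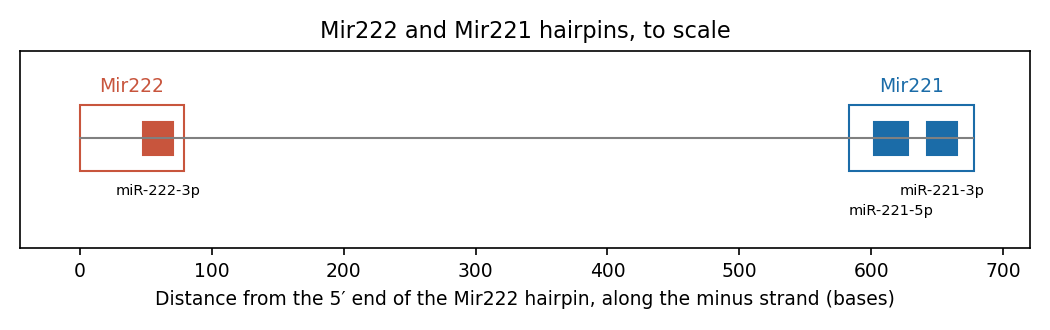
Map of the Mir222 and Mir221 hairpins (open boxes) and the mature strands listed in RefSeq (filled boxes), to scale, in bases from the 5′ end of the Mir222 hairpin along the minus strand. The hairpins stand 504 bases apart.

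Mir221 was the more abundant gene of the pair in both libraries, with CPM values that differed by less than counting error, while Mir222 was lower in replicate 2. Levels are CPM, reads of a gene per 1000000 reads assigned to miRNA genes in the column that counts a single strand (6924829 reads in replicate 2 and 3635851 in replicate 1). Counts are per hairpin, so the 5p and 3p strands are not separated. Mir221 had 12087 reads in replicate 2, or 1745 CPM (95% interval 1714.5 to 1777 by the exact Clopper-Pearson method), and 6326 reads in replicate 1, or 1739.9 CPM (1697 to 1783). Its intervals overlap almost wholly. Mir222 had 1629 reads in replicate 2, or 235 CPM (224 to 247), and 1965 reads in replicate 1, or 540.5 CPM (517 to 565). Here the intervals lie far apart, and replicate 1 held more Mir222 reads although it was the shallower library. All such intervals cover counting error only, because reads copied by PCR carry no molecular identifiers and several can stem from one molecule.

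Over both libraries Mir221 averaged 1743 ± 3.93 CPM (SD, n = 2), rank 57 of 2202 genes, and Mir222 averaged 388 ± 216 CPM, rank 117. The SD was 0.226% of the mean for Mir221 and 55.6% for Mir222. Mir221 held rank 53 in replicate 2 and 56 in replicate 1, whereas Mir222 held rank 137 and 105. The hairpins together reached 1981 CPM in replicate 2 and 2280 CPM in replicate 1, on average 2131 ± 212 CPM. With genes of a strand that lie no more than 10 kb apart summed as a locus, this was rank 42 of 1847 loci. Both genes had the same number of reads in the both-strand column as in the strand column.

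**Figure D2:**
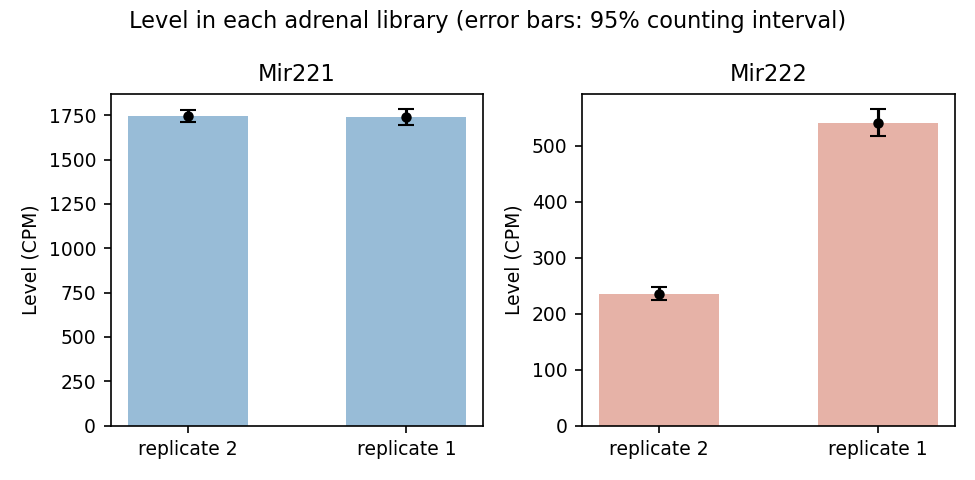
Level of Mir221 (left) and Mir222 (right) in replicate 2 and replicate 1, in CPM from 0, on a separate scale for each gene; error bars are exact 95% counting intervals. Mir221 stood at 1745 and 1739.9 CPM, Mir222 at 235 and 540.5 CPM.

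Genes were then compared between the libraries with a two-sided Fisher's exact test, which compares these libraries with counting error alone, and p-values were adjusted by Benjamini-Hochberg over the 455 genes whose summed reads reached 10. Mir222 was lower in replicate 2, with a log2 ratio of -1.20 (replicate 2 over replicate 1, exact 95% interval -1.30 to -1.10, adjusted p = 1.35e-134). Mir221 was not called, with a log2 ratio of 0.0046 (-0.039 to 0.049, adjusted p = 0.893). The test called 52.5% of all genes, and 35.6% of all genes as lower in replicate 2, so a call by itself sets no gene apart. Across the 356 detected genes the median log2 ratio was -0.19, so that relative to it Mir222 stood at -1.01 and Mir221 at 0.20. Of these genes, 15 had a lower log2 ratio than Mir222 and 21 a larger absolute log2 ratio. For Mir221, 352 had a larger absolute log2 ratio.

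In edgeR's exact test, which adds a spread between libraries to the counting error, neither gene was called. It was run at a common dispersion that corresponds to a coefficient of variation of 31.4%, with a p of 0.0687 and an adjusted p of 1 for Mir222 and an adjusted p of 1 for Mir221, and it called 1.1% of all genes. With a single library on each side, this dispersion was estimated from the same differences that are tested, so the missing call measures no replicate spread. The side of 0 on which Mir221 falls depends on scaling. With totals scaled by TMM or DESeq2 size factors, an exact binomial test called Mir221 higher in replicate 2, at log2 ratios of 0.15 and 0.18. Over all sequenced reads it was called lower, at -0.051, by a narrow margin, with an adjusted p just under 0.05. Mir222 stayed lower under each of these, between -1.26 and -1.02. TMM raised every log2 ratio by 0.14 relative to plain totals. The split of calls moved too, from 77 higher and 162 lower genes with plain totals to 111 and 125 with TMM.

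**Figure D3:**
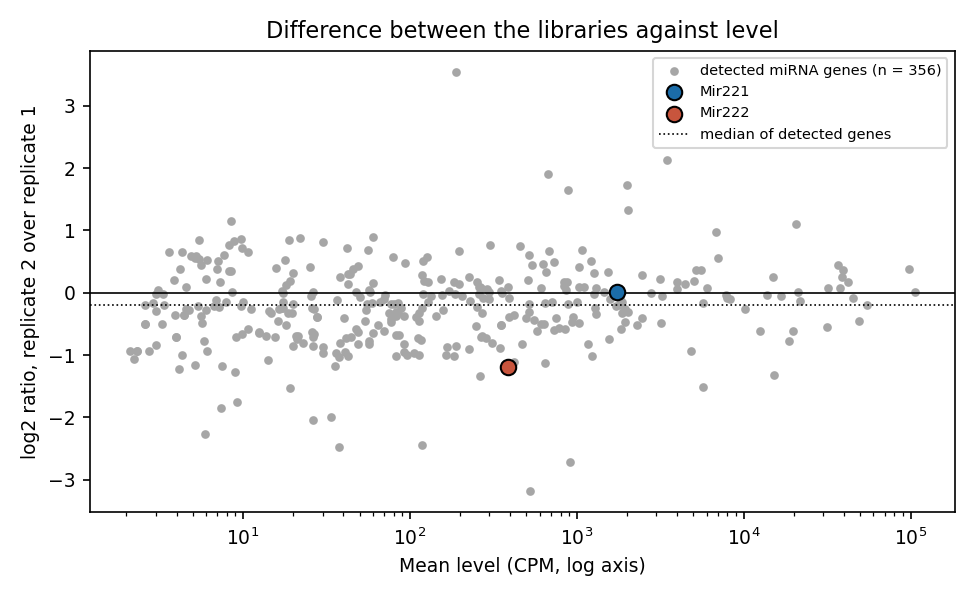
Log2 ratio of replicate 2 over replicate 1 against mean level (CPM, log axis) for the 356 detected miRNA genes (grey), with Mir221 and Mir222 in colour; the dotted line is the median of -0.19. Mir221 sits at 0, and Mir222 near the lower edge of genes of its level.

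**Figure D4:**
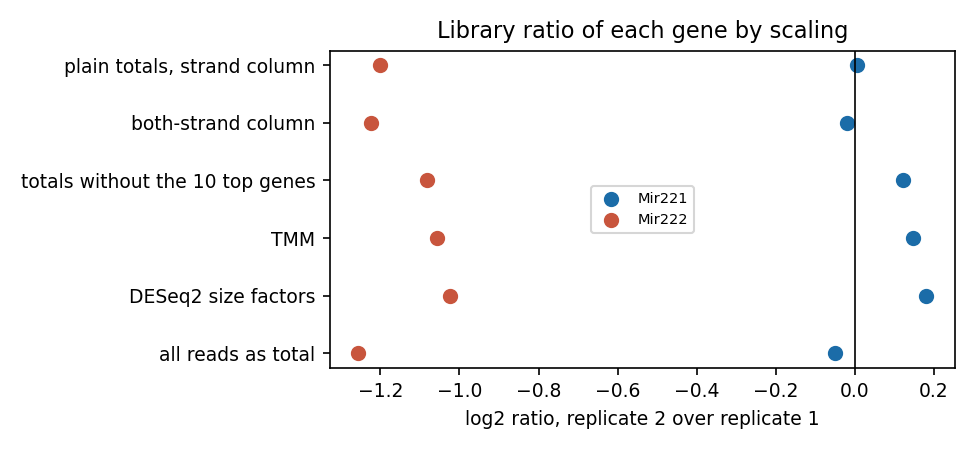
Log2 ratio of replicate 2 over replicate 1 for Mir221 and Mir222 under 6 choices of count column and library total. Mir222 stays between -1.26 and -1.02, while Mir221 moves between -0.051 and 0.18, on both sides of 0.

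Genes of like level give the scale for these differences. Within 2-fold of the mean level of Mir222 lay 60 other detected genes, with a median absolute log2 ratio of 0.40. Of them, 2 had a lower log2 ratio than Mir222 and 3 a larger absolute log2 ratio. Within 2-fold of Mir221 lay 43, with a median absolute log2 ratio of 0.33, and 42 of them had a larger absolute log2 ratio than Mir221. Of the 60 genes around Mir222, 14 were called higher in replicate 2, 30 lower and 16 not called. These windows were set after the values were seen.

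The share of the pair's reads that fell on Mir222 needs no library total and gives the difference without any scaling. Mir222 made up 11.9% of 13716 pair reads in replicate 2 (95% interval 11.3 to 12.4%, exact Clopper-Pearson) and 23.7% of 8291 in replicate 1 (22.8 to 24.6%). There were thus 7.42 Mir221 reads for each Mir222 read in replicate 2 and 3.22 in replicate 1. The odds of Mir222 over Mir221 in replicate 2 were 0.434 of those in replicate 1 (exact 95% interval 0.403 to 0.467, Fisher's exact test, two-sided, p = 1.70e-113), a log2 difference of -1.20. Here too the test holds for counting error alone, and with a single library on each side no replicate check of the ratio exists.

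Other neighbouring miRNA genes show how often such a shift was seen in these libraries. Consecutive detected genes on the same strand within 10 kb formed 94 pairs, which share the libraries and in part their members. The read ratio within the pair differed between the libraries in 63.8% of them (Fisher's exact test, Benjamini-Hochberg over the pairs), and for Mir221 and Mir222 the adjusted p over the 94 pairs was 1.78e-112. The absolute difference in log2 ratio between members was 1.20 for Mir221 and Mir222, against a median of 0.49 over all pairs, and 11 pairs had a larger one. In level, the members of the pair lay 2.17 log2 units apart, against a median of 2.68, and 55 pairs lay further apart. Some pairs hold genes with near-identical copies at other loci, such as Mir29b-1 and Mir29b-2. Reads with several genomic matches were not counted on genes, so level gaps and library differences of such pairs are uncertain, as are ranks among them.

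The 4 pairs nearest in that difference were Mirlet7e and Mir99b, at 1.20, Mir421 and Mir374b, an X-linked pair, at 1.16, Mir15a and Mir16-1, at 1.22, and Mir30d and Mir30b, at 1.27. For 91 of the 94 pairs the RefSeq table lists mature sequences of both members. The members shared a seed in 24 of them, as Mir221 and Mir222 do, and 4 of these had a larger difference, while the seeds of 3 pairs, Mir30d and Mir30b among them, were not compared. The largest difference of a seed-sharing pair was 1.72, for Mir30e and Mir30c-1, with log2 ratios of -1.51 and 0.21. Mir195a and Mir497, at 0.46 and -1.16, were apart by 1.62. Mir16-1 and Mir30c-1 have near-identical copies at other loci, so the differences of their pairs are uncertain. Mir30e, Mir497, Mirlet7e and Mir374b had 0 reads in the both-strand column in both libraries, so these pairs rest on the strand column alone. Over all 94 pairs the less abundant member had the lower log2 ratio in 47 and the higher in 47.

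**Figure D5:**
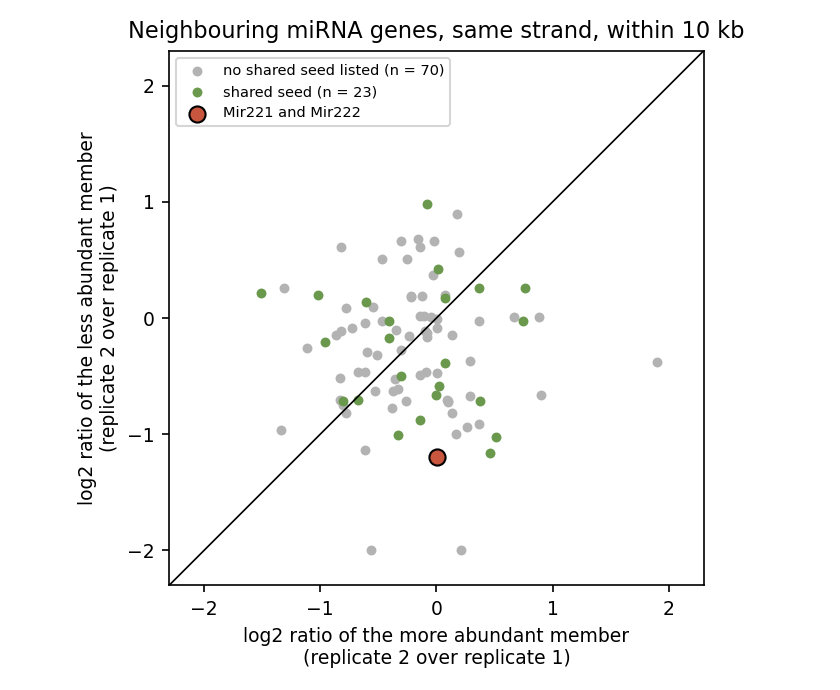
Log2 ratio of replicate 2 over replicate 1 for the more abundant (horizontal) and the less abundant member (vertical) of 94 neighbouring miRNA gene pairs; green pairs share a seed among the 91 with listed mature sequences, and the line marks equal ratios. Mir221 and Mir222, at 0.0046 and -1.20, lie below the line by 1.20.

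The genes most like each member were found by Euclidean distance between log2 CPM values over the 2 libraries, a description that says nothing of shared control. Nearest to Mir221 were Mir335, with 1763 CPM in replicate 2 and 1889.5 CPM in replicate 1, at a distance of 0.12, Mir337 at 0.16 and the X-linked Mir361 at 0.17. Mir335 and Mir337 also stood next above and next below it in mean level, at 1826 ± 89.7 and 1727 ± 181 CPM (SD, n = 2). An SD of 2 libraries is too few to call these levels equal. In replicate 1 both lay above the 95% counting interval of Mir221 (1697 to 1783 CPM), Mir337 at 1855 CPM. In replicate 2 Mir335 lay within it (1714.5 to 1777 CPM) and Mir337 below, at 1599 CPM. Nearest to Mir222 were Mir497, with 241 CPM in replicate 2 and 539 CPM in replicate 1, at a distance of 0.033, Mir193b at 0.20 and the X-linked Mir500 at 0.26. Mir497, known to restrain the cell cycle, was thus lower in replicate 2 by nearly the same amount, with a log2 ratio of -1.16. Mir497 had 0 reads in the both-strand column, and Mir337 had 25 in replicate 2 and 12 in replicate 1. In all, 29 detected genes kept under 50% of their reads in that column, and all 29 overlap a gene annotated on the other strand, for Mir497 the gene Mir497b. In mean level Mir497 stood next above Mir222, at 389.8 ± 211 CPM, and Mirlet7c-1 next below, at 386 ± 16.6 CPM, both within the spread of Mir222.

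Because the pair is known from vessels, it was set beside 17 miRNA genes linked to the vessel wall, all found in the tables and 16 of them detected. Genes with near-identical copies, such as Mir23a and Mir23b and the let-7 genes, have uncertain counts, since reads with several genomic matches were not counted on genes. The listed genes took 22.7% of miRNA reads in replicate 2 and 24.8% in replicate 1. Of the 17, 9 had a higher mean level than Mir221 and 12 a higher one than Mir222. They were led by Mir10a, a gene of the Hox clusters, at 54843 ± 5191 CPM, Mir126a, the endothelial miRNA, at 49108 ± 10714 CPM, and Mir23b and Mir23a at 31951 ± 1110 and 31681.5 ± 8382 CPM. Between libraries 5 were called higher in replicate 2, 11 lower and none was left uncalled by Fisher's exact test. Over all genes tested 16.9% were called higher and 35.6% lower, and genes with many reads, as most listed here, are called more easily. The median log2 ratio of the list was -0.21 against -0.18 over all genes tested. With TMM 6 listed genes were called higher, 8 lower and 2 not. By edgeR's exact test the 4 named genes were not called, each with an adjusted p of 1.

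Among 16 miRNA genes linked to proliferation, 14 were detected, and 3 had a higher mean level than Mir221 and 9 than Mir222. Mir21a, raised in many tumours, stood at 20539 ± 10653 CPM, Mir93 of the miR-106b cluster at 2020.4 ± 299 CPM, Mir31 at 2007 ± 1520 CPM and Mir17 of the miR-17-92 cluster at 1296 ± 150.5 CPM. Fisher's exact test called 3 of 15 tested members higher in replicate 2, 9 lower and 3 not, and their median log2 ratio was -0.27. All 25 listed miRNAs known to restrain proliferation were detected, and 16 were called higher, 6 lower and 3 not, with a median log2 ratio of 0.17. Several of them, let-7 genes included, have near-identical copies and so uncertain counts. Over all genes tested 16.9% were called higher and 35.6% lower. The split of the restraining miRNAs depended on the total, with 18 higher and 5 lower with TMM and 13 higher and 8 lower over all sequenced reads. They were led by the let-7 genes Mirlet7b at 107083 ± 838 CPM, Mirlet7g at 98551 ± 18128 CPM, Mirlet7i at 42478 ± 3482 CPM and Mirlet7d at 39277 ± 7008 CPM. By edgeR's exact test none of the leading genes named here for either list was called. It did call Mir26a-2, a less abundant gene of the restraining list, higher in replicate 2, at a log2 ratio of 3.55.

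On the X chromosome no other annotated miRNA gene lay within 1 Mb of the pair. Of the 140 others, 32 were detected, 6 had a higher mean level than Mir221 and 10 a higher one than Mir222. The leading ones were Mir652 at 13902.5 ± 218 CPM, Mir322 at 10163 ± 1259 CPM, Mir98 at 6053 ± 221.8 CPM and Mirlet7f-2 at 3986 ± 331 CPM. Of the 35 tested, 7 were called higher in replicate 2, 15 lower and 13 not by Fisher's exact test, with a median log2 ratio of -0.10. Over all genes tested 16.9% were called higher and 35.6% lower, so these counts set the X-linked genes little apart. With TMM there were 10 X-linked genes called higher and 10 lower, and their median turned to 0.040.

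Markers of cell types were compared beside the pair, since in whole tissue fewer cells of a type and less RNA per cell cannot be told apart. The endothelial marker Mir126a stood at 41532 CPM in replicate 2 and 56684 CPM in replicate 1, with a log2 ratio of -0.45. These levels rest on the strand column alone. In the both-strand column Mir126a, which overlaps Mir126b on the other strand, had 10 reads in replicate 2 and 2 in replicate 1.

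The smooth muscle markers Mir143 and Mir145a summed to 21489 CPM in replicate 2 and 23925 CPM in replicate 1. Mir145a was lower in replicate 2 with each total tried, at a log2 ratio of -0.49 with plain totals. Mir143 was lower with plain totals, at -0.14, but not called with TMM, at 0.0035, and called higher with DESeq2 size factors, at 0.037. The 3 red cell markers summed to 190.5 CPM in replicate 2 and 446 CPM in replicate 1. Mir451a and Mir144 were lower, at log2 ratios of -1.34 and -0.96, while Mir486, listed by its older name Mir486a, was not called, at -0.24 (adjusted p = 0.414). The 5 leukocyte markers summed to 2259 and 2281 CPM, with 1 called higher in replicate 2 and 4 lower, of which Mir155 and Mir223 were not called with TMM. Mir451a, Mir142 and Mir486 also had 0 reads in the both-strand column.

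The 4 endocrine and medulla markers summed to 48363 CPM in replicate 2 and 50709 CPM in replicate 1, with 1 called higher, 2 lower and 1 not. Their leading gene Mir375 was lower with plain totals, at -0.078, and higher with TMM, at 0.064. Mir202, listed as a marker of steroid-making gonads and adrenal gland, was low at 19.8 CPM in replicate 2 and 32.5 CPM in replicate 1. It was called lower in replicate 2, and its level in this adrenal tissue was below that of the liver marker Mir122. Markers of liver and kidney were also low in both libraries. The liver marker Mir122 had 108 and 78.1 CPM and was called higher in replicate 2, and the kidney markers summed to 32.8 and 55.8 CPM, with both tested members called lower. The striated muscle markers summed to 0.866 and 2.75 CPM, all from Mir206, with 6 reads in replicate 2 and 10 in replicate 1. The 4 of 5 at 0 in both libraries have near-identical copies. Reads with several genomic matches were not counted, so these values of 0 do not show absence.

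Of the 20 markers tested, Fisher's exact test called 14 lower in replicate 2, 3 higher and 3 not. Over all genes tested it called 35.6% lower and 16.9% higher, and genes with many reads are called more easily. With TMM an exact binomial test called 10 of the markers lower, 5 higher and 5 not. By edgeR's exact test none of the 20 was called, and 1, Mir451a, had an unadjusted p under 0.05. The part of these cell types in the level of Mir222 was not tested.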

How the data were processed

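Small RNA libraries from total RNA of adrenal gland, 2 replicates of 1 group, were analysed from the deposited tables of raw counts per miRNA gene. Per the labels and the deposited notes, they were made on assembly mm10 with annotation GENCODE M21. Which aligner and counting program made them is not given in the sources used here. The count columns carry no names and were read from their sums as both strands, 1 strand (used here) and the other strand. The 4 entries that name no gene were left out of totals. In replicate 2 and replicate 1 they held unmapped reads (16.5% and 16.1%), multimapping reads (33.6% and 31.6%) and reads on no miRNA gene (4.99% and 5.55%). Of all 15391360 and 7774567 reads, 45.0% and 46.8% were counted on miRNA genes.

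With 1 library on each side, edgeR's quasi-likelihood test has no residual degrees of freedom. Fisher's exact test with Benjamini-Hochberg adjustment at 0.05 was used instead, with log2 ratios at an offset of 0.5 counts, and edgeR's exact test at a common dispersion estimated over all detected genes as an alternative. A count of 0 allows up to 3 counts. Alternatives covered the count column, TMM, DESeq2 size factors, the library total, the read minimum, the offset and the distance between neighbours. With TMM and DESeq2 totals, calls came from an exact binomial test in place of Fisher's exact test, with the same adjustment. Named are the pair, the 3 nearest genes of each and the genes next in level. Also named are the 4 nearest pairs and up to 4 leading members of each list. The seed-sharing pairs beyond these, and Mir26a-2, were chosen after their values were seen. The members and lists (vessel wall, proliferation linked and restraining, X chromosome, cell type markers) were chosen with earlier results of these data known. Procedures were tested on simulated data. The tools were RNAfold 2.7.2, Biopython 1.88, scipy 1.17.1, pandas 2.3.3, matplotlib 3.10.9, numpy 2.4.6 and Python 3.11.15, with DESeq2 1.42.0 and edgeR 4.0.16 in R 4.3.3.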

Additional observations from a re-analysis of the deposited data

How the results depend on the processing

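The level of Mir221 moved beyond its small SD with the choice of reads, to a mean of 1989 CPM in the both-strand column, 3879 CPM without the 10 most abundant genes in the total and 799 CPM over all sequenced reads, and that of Mir222 moved beyond its SD to 849.5 CPM without the 10 most abundant genes. Leaving out 1 replicate gave 1739.9 to 1745 CPM for Mir221 and 235 to 540.5 CPM for Mir222. The log2 ratio of Mir221 became a call with TMM (0.15), DESeq2 size factors (0.18) and totals without the 10 most abundant genes (0.12), and turned to -0.051 over all sequenced reads, since these change the ratio of the totals. That of Mir222 was -1.20 with no call by edgeR's exact test (adjusted p = 1), and -1.26 to -1.02 and called under the other alternatives. Fisher's exact test called 239 genes and edgeR's exact test 5, with 26 at an unadjusted p under 0.05. The odds ratio of the pair was the same in the both-strand column. Larger library differences than that of Mir221 and Mir222 were found in 10.5 to 16.7% of neighbouring pairs under the alternatives, against 11.7% of the 94 pairs. The subsets of seed-sharing pairs and of pairs with at least 500 reads, and the other totals tried on the gene lists and markers, were chosen after seeing the data. No paired analysis was possible because there is 1 group. Counting error was small beside the difference of Mir222, and the number of libraries limits its precision.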
